A study of Mus musculus with 12 samples.

Results

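The genes described here are 55 mouse genes of mitosis, chosen by symbol from the 37141 gene rows of the deposited table. All 55 symbols had a row. They were grouped by the step in which their products act: 9 genes of mitotic entry, 12 of the spindle and its motors, 11 of the kinetochore, 8 of the checkpoint and centromere, 9 of chromosome structure and 6 of anaphase. Their transcripts were followed in hepatocytes sorted from mouse livers, with and without an acute chemical injury and with and without YAP and TAZ, the transcriptional co-activators of the Hippo pathway.

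All 12 libraries came from Yapflox/flox; Tazflox/flox mice, in which both genes can be deleted by Cre recombinase, and each library was made from 500000 sorted cells. Pentobarbital was listed for all 12 samples at the same dose. The 4 groups held 3 libraries each. Uninjured controls (ctrl) and injured controls (ctrl + CCl4) kept both genes and carry the effective genotype WT in the labels. Both knockout groups (Yap/Taz KO and Yap/Taz KO + CCl4) had been given 5e11 genome copies of AAV8.TBG.PI.Cre.rBG through the tail vein and held for 3 weeks. The TBG promoter is active in hepatocytes, so other liver cells keep both genes. Injured groups had received carbon tetrachloride (CCl4), a toxin of hepatocytes, at 1 ml/kg in corn oil into the peritoneum and were collected after 48 h. The labels name no control vector and no vehicle injection, so each comparison includes any effect of the vector or the injection itself. The sources used here do not give age, sex, the sort gate or whether the libraries of a group came from separate animals. The p-values therefore measure the spread between libraries alone, and that spread may be technical.

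Mitosis runs through ordered steps. Kinases such as Plk1 and Aurka and the phosphatases that activate Cdk1 bring a cell into mitosis, motor proteins and microtubule organisers build the spindle, and condensin and topoisomerase fold the replicated chromosomes. Kinetochores, assembled on the centromere histone Cenpa, hold chromosomes to microtubules. The spindle checkpoint (Ttk, Bub1, Bub1b, Mad2l1) blocks Cdc20 until every kinetochore is attached. Cdc20 then lets the anaphase-promoting complex destroy securin (Pttg1), which frees separase (Espl1) to cut the cohesin that joins sister chromatids. Adult hepatocytes rarely divide, and they re-enter the cell cycle in large numbers when liver tissue is lost.

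Library totals ranged from 1617761 to 3028951 counts, and 11281 to 14879 genes were detected. Levels are given as CPM, the counts of a gene relative to a library total scaled by edgeR's trimmed mean of M values (TMM). Yap1 was at 40.3, 61.9 and 71.8 CPM in ctrl and at 22.2, 9.65 and 14.9 CPM in Yap/Taz KO. After injury it was at 53.5, 50.6 and 65.7 CPM in ctrl + CCl4 and at 14.8, 14.2 and 14.4 CPM in Yap/Taz KO + CCl4. Wwtr1, the TAZ gene, ranged from 24.2 to 57.6 CPM in ctrl against 10.1 to 18.3 in Yap/Taz KO, and from 32.6 to 34.8 against 19.9 to 25.3 after injury. The 3 knockout libraries of each injury state were thus all below the controls for both genes, although neither gene passed the test across all genes (edgeR adjusted p from 0.0995 to 0.983).

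Before injury the mitotic transcripts were close to the limit of detection. The median member averaged 1.16 CPM in ctrl and 0.645 CPM in Yap/Taz KO. Of the 55 genes, 9 had no count in any ctrl library and 11 had none in any Yap/Taz KO library, and a further 8 and 12 had 1 to 3 counts over the whole group. After injury the median member averaged 41.7 CPM in ctrl + CCl4 and 30.5 CPM in Yap/Taz KO + CCl4. Ube2s was then the only member without a count in ctrl + CCl4, and every member had counts in Yap/Taz KO + CCl4. The summed level of the 55 genes was 369, 230 and 248 CPM in ctrl and 4833, 4716 and 3700 CPM in ctrl + CCl4. In the knockout it was 215.5, 230.7 and 218 CPM without injury and 3165, 3906 and 2517 CPM after it. Injured libraries lay far above uninjured ones in both genotypes, with no overlap.

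**Figure D1:**
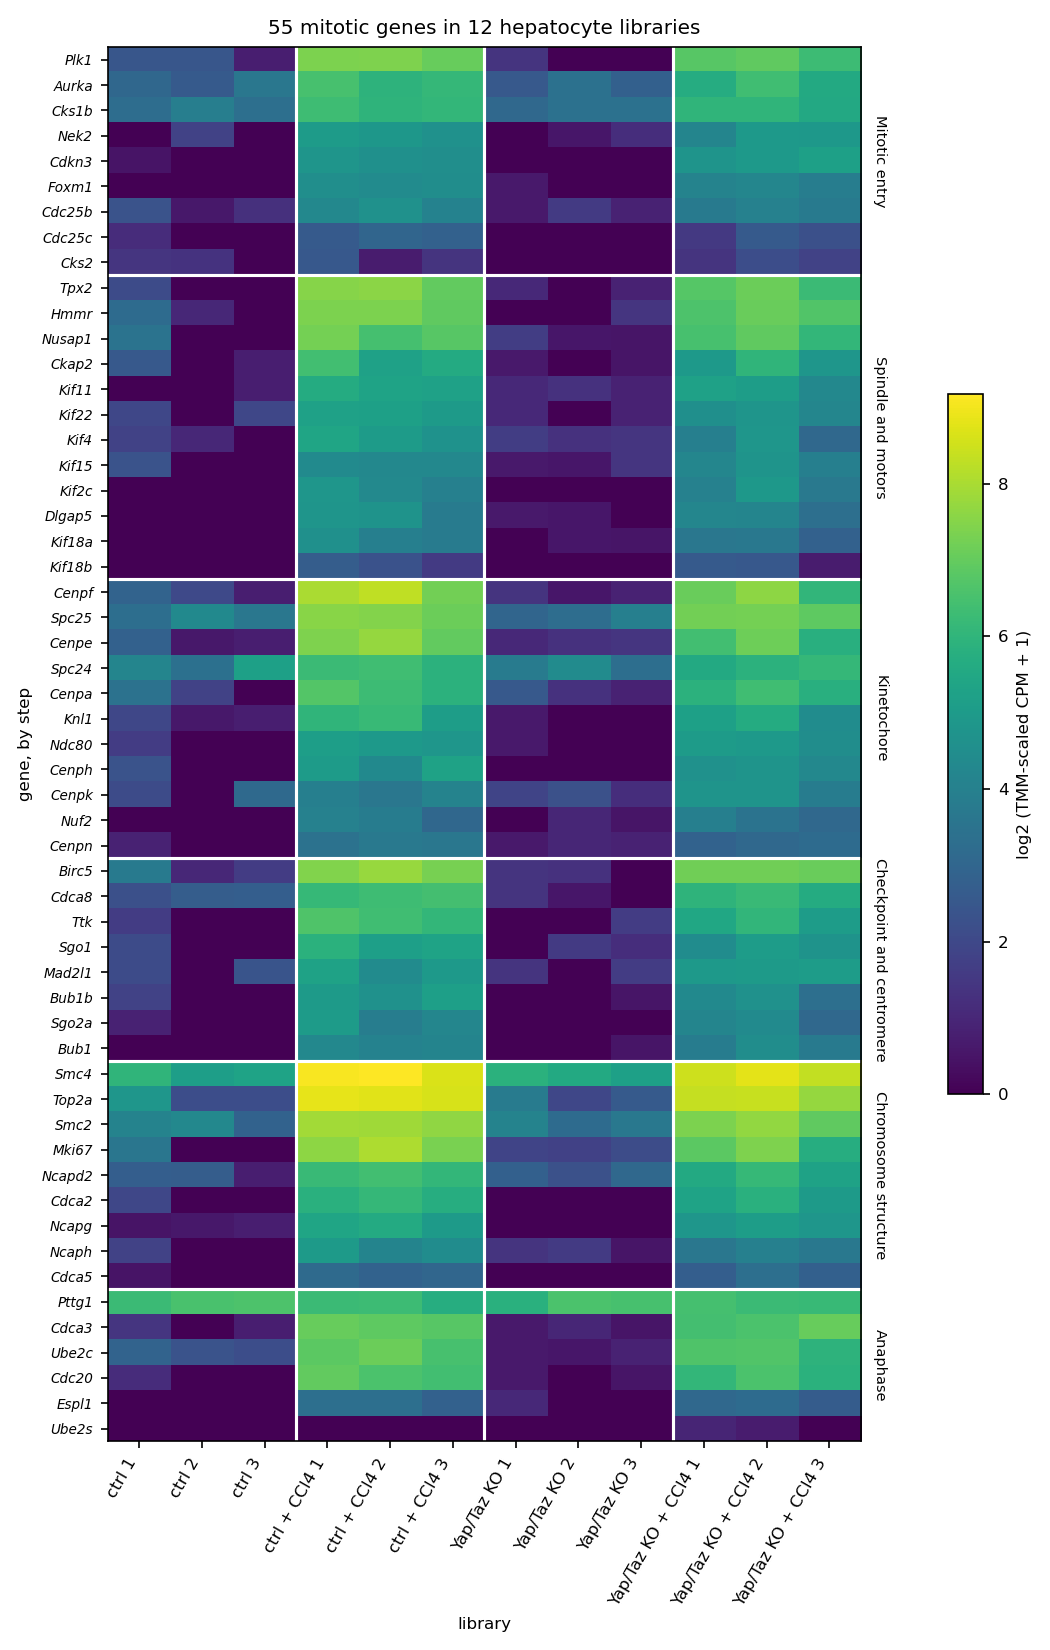
Level of each of the 55 genes (rows, by step) in each of the 12 libraries (columns), as log2 of TMM-scaled CPM plus 1. The 6 injured libraries are bright in nearly every row, while Pttg1 has the same shade in all 12 and Ube2s and Cks2 are dark throughout.

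In injured controls 52 of the 53 members that passed the filter on low counts rose and none fell (edgeR quasi-likelihood test, Benjamini-Hochberg adjusted p under 0.05 over 10780 genes). The share of all tested genes called higher was 10.5%, and called lower 12%. The median log2 fold change of the members was 5.01, or 4.87 with the 8 members that had no count in ctrl set at their lower bound, against 0.03 for all tested genes. In the knockout 52 of 53 rose and none fell, where 9.42% of all tested genes were called higher and 8.35% lower, with a median of 5.82 (5.23 with 9 members at their bound). All 3 injured libraries were above all 3 uninjured ones for 52 of the 55 members in controls and 53 of 55 in the knockout, against 19.1% and 21.2% of all tested genes, and none was all lower, against 17.5% and 18.1%. Most members pass the filter through the injured groups: in the 6 uninjured libraries alone 9 members do. The counts over the 53 tested genes are therefore a description of genes seen mainly after injury.

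Both injury responses kept their calls in nearly all settings tried. Of the 52 calls, 49 held in every alternative in controls and 51 in the knockout, and the exceptions Cenpk, Kif18b and Cdc25c are given with their steps. Uninjured ctrl replicate 1 stood apart from the other ctrl libraries. It had more counts than the other 2 together for 35 of the 55 members, and 17 members were seen in it alone. Its summed macrophage and Kupffer cell markers (12 genes) were at 2800 CPM against 516 and 643 CPM, and its erythroid markers (5 genes) at 1580 CPM against 19.6 and 154 CPM. Without it 25 of the 53 tested members had no count left in ctrl, and the median injury response of the members in controls was 4.66 with these at their lower bound.

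Transcripts of other cells also moved with injury, though not in every set. For these sets rose and fell mean calls at an edgeR adjusted p under 0.05. Of all tested genes 10.5% rose in controls and 9.42% in the knockout, and 12% and 8.35% fell. The 8 hepatocyte markers remained by far the most abundant set, with sums of 46900 to 63200 CPM in ctrl + CCl4 against 96700 to 134000 CPM in ctrl. All 8 fell in controls. In the knockout 1 of 8 was called lower, while all 8 had a log2 fold change below 0. Their sums there were 112000 to 139000 CPM without injury and 69500 to 87100 CPM after it. Of the 10 monocyte and neutrophil markers, 6 rose in controls and 10 in the knockout, with sums from 58.9 to 324 CPM in ctrl, 476 to 789 in ctrl + CCl4, 36.2 to 118 in Yap/Taz KO and 426 to 608 in Yap/Taz KO + CCl4. All 10 had a log2 fold change above 0 in both genotypes. Macrophage and Kupffer cell markers summed to 2500 to 4390 CPM in ctrl + CCl4, 239 to 1150 in Yap/Taz KO and 2020 to 3050 in Yap/Taz KO + CCl4, and 3 of 12 rose in controls and 4 of 12 in the knockout. Of the 12, 10 had a log2 fold change above 0 in controls and 11 in the knockout. In controls the mean of Lyz2 went from 122 to 1150 CPM, while that of Clec4f went from 125 to 72.8 CPM and that of Timd4 from 12.7 to 7.61 CPM. Ly6c2, S100a8, Cx3cr1 and Chil3, of monocytes and neutrophils, were each at 0 in at least 1 uninjured library, and no marker of these 2 sets was at 0 in an injured library. Of the 10 stellate cell and matrix markers, 4 rose in controls and 6 in the knockout, with sums from 291 to 1280 CPM in ctrl, 1120 to 2160 in ctrl + CCl4, 257 to 793 in Yap/Taz KO and 1700 to 1920 in Yap/Taz KO + CCl4. None of the 10 endothelial markers rose or fell in either genotype. Endothelial sums ran from 545 to 1900 CPM in ctrl and 782 to 1000 in ctrl + CCl4. In the knockout they ran from 448 to 1090 CPM without injury and 826 to 1070 after it. The 9 lymphocyte markers summed to 0 to 9.46 CPM in ctrl, 35.2 to 44.5 in ctrl + CCl4, 0.852 to 16.8 in Yap/Taz KO and 8.48 to 18.6 in Yap/Taz KO + CCl4. Il7r, the only lymphocyte marker that could be tested, rose in both genotypes (edgeR adjusted p = 0.000204 and 0.0105), and Cd79a was at 0 in all 12 libraries. Il7r alone made up most of the lymphocyte sums after injury. It averaged 34.1 CPM in ctrl + CCl4, where the mean sum was 39.5, and 10.4 CPM in Yap/Taz KO + CCl4, where it was 14.1. The part of these cells in the mitotic transcripts was not tested. In such bulk samples a change in the number of dividing cells and a change in transcript per dividing cell cannot be told apart.

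The promoters of the members were read next, since so many of these genes moved together. Of the 55 genes, 48 had an entry in a RefSeq table of promoters (GRCm38.p6, 250 bases before to 50 bases after the annotated start), with 51 entries in all. One promoter is shown for each step, that of the member with the smallest adjusted p in the injury response of controls among those with an entry, followed by that of Pttg1, the member tested that did not pass. Each is 150 bases long, from base -100 to base 49 around the start at 0, written 5′ to 3′ on the strand of the gene. Capitals mark TTTGAA, the hexamer of the cell cycle homology region known from mitotic promoters, and CCAAT, the core of the CCAAT box, on either strand (TTCAAA and ATTGG when read on the other).
Plk1, the Polo-like kinase of mitotic entry, lies on the plus strand and is shown for chr7:122159335-122159484.
Plk1: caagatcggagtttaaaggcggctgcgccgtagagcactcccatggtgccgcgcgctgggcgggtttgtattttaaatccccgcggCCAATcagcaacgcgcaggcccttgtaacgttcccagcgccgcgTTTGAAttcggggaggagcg
Kif11, the motor that pushes spindle poles apart, lies on the plus strand and is shown for chr19:37376282-37376431.
Kif11: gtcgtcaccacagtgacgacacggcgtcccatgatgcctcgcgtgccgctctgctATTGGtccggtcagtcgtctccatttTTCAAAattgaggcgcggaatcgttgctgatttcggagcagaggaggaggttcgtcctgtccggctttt
Spc25, a subunit of the NDC80 complex of the kinetochore, lies on the minus strand and is shown for chr2:69206164-69206313.
Spc25: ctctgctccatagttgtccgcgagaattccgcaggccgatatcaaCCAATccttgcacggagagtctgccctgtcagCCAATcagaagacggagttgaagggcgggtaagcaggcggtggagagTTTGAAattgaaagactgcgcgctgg
Cdca8, borealin of the chromosomal passenger complex, lies on the minus strand and is shown for chr4:124936868-124937017.
Cdca8: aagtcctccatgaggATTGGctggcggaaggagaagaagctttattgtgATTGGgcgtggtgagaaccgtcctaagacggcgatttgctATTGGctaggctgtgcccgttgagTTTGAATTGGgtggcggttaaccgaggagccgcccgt
Ncapg, a subunit of condensin I, lies on the plus strand and is shown for chr5:45669825-45669974.
Ncapg: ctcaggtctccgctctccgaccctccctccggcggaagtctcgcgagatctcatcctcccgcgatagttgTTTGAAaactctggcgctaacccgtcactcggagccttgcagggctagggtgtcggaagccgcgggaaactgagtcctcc
Cdca3, which promotes the destruction of an inhibitor of Cdk1, lies on the plus strand and is shown for chr6:124830076-124830225.
Cdca3: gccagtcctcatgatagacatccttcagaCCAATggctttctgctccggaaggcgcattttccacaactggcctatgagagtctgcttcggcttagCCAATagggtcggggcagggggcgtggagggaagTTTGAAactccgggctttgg
Pttg1, securin, lies on the minus strand and is shown for chr11:43425932-43426081.
Pttg1: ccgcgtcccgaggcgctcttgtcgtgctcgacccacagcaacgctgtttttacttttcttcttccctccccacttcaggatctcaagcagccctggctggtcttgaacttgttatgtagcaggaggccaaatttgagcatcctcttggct

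The first 6 of these promoters each held 1 TTTGAA near the start. It began at base 30 in Plk1 and Cdca3, at base 24 in Spc25 and at base 13 in Cdca8, where it shares bases with an ATTGG. In Kif11 it lay on the opposite strand at base -19, and in Ncapg at base -30. CCAAT was also present in each of the 6 entries, with 4 matches in Cdca8, 3 in Cdca3 and 2 in Spc25, although the match of Ncapg and 1 of those of Cdca3 lie outside the stretch shown. Pttg1 had neither motif in its 300 bases. The RefSeq starts of Pttg1, Cdca3 and Cdca8 lie 270, 629 and 2394 bases inside the gene as GENCODE M21 draws it, so bases before the outermost start of these genes were not read. Over all members TTTGAA was found in 31 of 51 entries (60.8%), against 17.9% of all 32851 promoter entries and 12.5% of those of tested genes. CCAAT was found in 38 of 51 entries (74.5%), against 37.4% of all entries. Both motifs occurred in 51.0% of member entries and in 7.0% of all. Within 50 bases of the start, a window chosen after the matches were seen, TTTGAA was in 51.0% of member entries and in 4.9% of all. By step, TTTGAA was in 6 of 7 entries of chromosome structure genes, 8 of 10 of spindle genes, 4 of 6 of anaphase genes, 4 of 7 of entry genes, 6 of 12 of kinetochore genes and 3 of 9 of checkpoint and centromere genes. Such matches describe the letters of these windows and were not tested as binding sites.

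**Figure D2:**
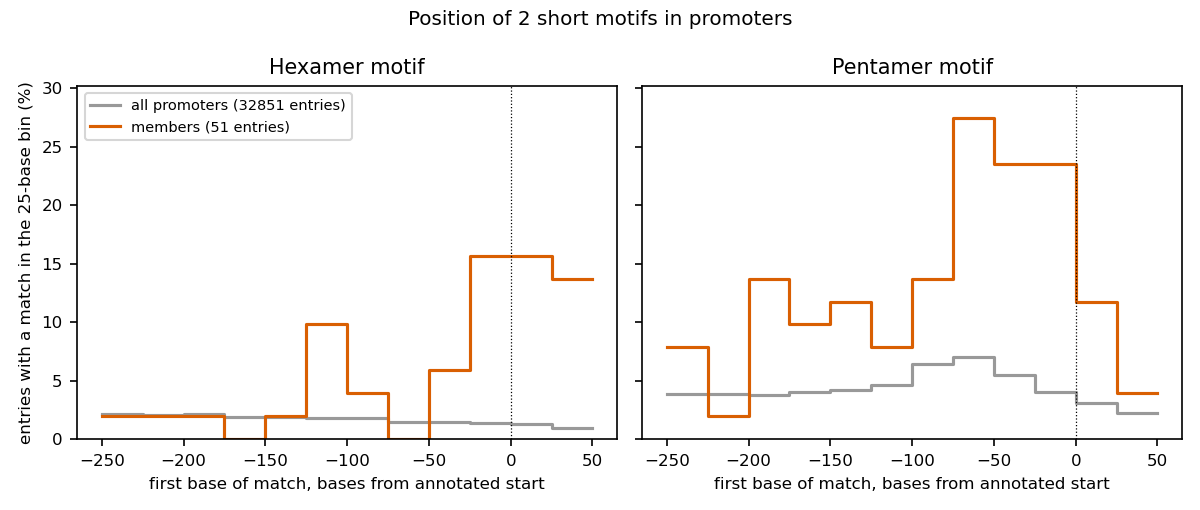
Share of promoter entries (percent) with a match of TTTGAA (left, hexamer) or CCAAT (right, pentamer), on either strand, in bins of 25 bases around the annotated start at 0. Orange lines are the 51 entries of the mitotic genes and grey lines all 32851 entries, and the hexamer of the mitotic genes peaks at 15.69% in the bins on both sides of the start.

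At mitotic entry, all 8 tested genes rose in both genotypes, with median log2 fold changes of 4.23 in controls and 5.72 in the knockout (4.39 with 2 members at their bound). The step summed to 26.3 ± 3.08 CPM in ctrl, 397 ± 41.8 in ctrl + CCl4, 18.3 ± 3.29 in Yap/Taz KO and 310.0 ± 50.8 in Yap/Taz KO + CCl4 (SD, n = 3 each). Plk1 stood at 4.52, 4.53 and 0.711 CPM in ctrl and at 163, 169 and 130 CPM in ctrl + CCl4. In the knockout it went from 1.62, 0 and 0 to 110, 121 and 77.2 CPM. Its log2 fold change was 5.44 in controls (SE 0.48, edgeR adjusted p = 5.04e-06), and the 3 counts of the uninjured knockout give a 214-fold ratio there with a 95% counting interval from 73.2 to 1040. Uninjured and injured libraries did not overlap in either genotype.

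Foxm1, the transcription factor that drives genes of the G2 phase and mitosis, had no count in ctrl and 22.0, 20.7 and 21.6 CPM in ctrl + CCl4, a rise of at least 41.6-fold (edgeR adjusted p = 2.16e-05). Knockout libraries had 1 count of Foxm1 before injury and 16.4, 17.4 and 13.8 CPM after it, a 99.4-fold ratio with a 95% counting interval from 17.6 to 3950. The last 500 bases of Foxm1 overlap 2 other genes on the same strand (Tex52 and Gm44596), so its counts are less certain. Cks1b, a small subunit of cyclin-dependent kinases, was already measurable without injury. It was at 8.64, 14.1 and 9.24 CPM in ctrl and 79.1, 61.6 and 67 CPM in ctrl + CCl4, and at 7.58, 9.65 and 9.79 against 62.5, 62.6 and 45.8 CPM in the knockout. Its log2 fold changes of 2.69 (SE 0.27, edgeR adjusted p = 1.05e-05) and 2.65 (SE 0.27, adjusted p = 1.54e-05) were close to each other. A retrotransposed copy of Cks1b has a row of its own in the table and could share its reads.

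Cdkn3, a phosphatase that acts on cyclin-dependent kinases, had 1 count in ctrl and 26.7, 23.2 and 21.9 CPM in ctrl + CCl4, a 139-fold ratio with a 95% counting interval from 24.6 to 5500. It had no count in Yap/Taz KO and 25.9, 29.7 and 35.8 CPM in Yap/Taz KO + CCl4, at least 63.7-fold higher. Aurka (the spindle kinase Aurora A), Nek2 (a kinase that separates centrosomes) and Cdc25b (a phosphatase that activates Cdk1) rose by 3.23, 4.94 and 3.15 on the log2 scale in controls and by 3.10, 5.23 and 3.55 in the knockout. The call of Cdc25c in controls (edgeR adjusted p = 0.0175) was lost when any of 4 libraries was left out (ctrl replicate 2 or 3, or ctrl + CCl4 replicate 2 or 3), with adjusted p up to 0.0552. Cks2, the second small kinase subunit, did not pass the filter on low counts. Its counts were 4, 3 and 0 in ctrl, 13, 2 and 5 in ctrl + CCl4, 0 in each Yap/Taz KO library and 5, 11 and 8 in Yap/Taz KO + CCl4. Controls overlapped between injury states, while the injured knockout libraries were all above the uninjured ones, by at least 5.27-fold.

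All 12 spindle and motor genes rose in both genotypes, with median log2 fold changes of 5.83 in controls (4.95 with 4 members at their bound) and 5.74 in the knockout (5.15 with 2 at their bound). Their summed level was 36.2, 2.01 and 4.26 CPM in ctrl and 811, 667 and 559 CPM in ctrl + CCl4. Knockout sums were 9.21, 4.83 and 8.94 CPM against 464, 628 and 358 CPM. Kif11 had 1 count in ctrl, in replicate 3, and stood at 49.4, 38.7 and 37.1 CPM in ctrl + CCl4. The ratio of 241 has an interval for counting error that runs from 43.0 to 9540. In the knockout Kif11 went from 1.08, 1.45 and 0.852 CPM to 37.2, 33.2 and 18.5 CPM, a log2 fold change of 4.67 (SE 0.49, edgeR adjusted p = 1.93e-05).

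Tpx2, which nucleates spindle microtubules and activates Aurora A, had counts in ctrl replicate 1 only (3.29 CPM) and reached 182, 191 and 126 CPM in ctrl + CCl4. Its log2 fold change was 6.92 in controls (SE 0.62, edgeR adjusted p = 5.79e-06). Knockout levels of Tpx2 went from 1.08, 0 and 0.852 to 106, 136 and 75.7 CPM, a log2 fold change of 7.27 (SE 0.68, adjusted p = 8.38e-06). Hmmr, a microtubule binding protein of the spindle pole, was at 8.23, 1.01 and 0 CPM in ctrl and at 162, 164 and 121 CPM in ctrl + CCl4. It went from 0, 0 and 1.7 to 97.9, 135 and 103 CPM in the knockout, with log2 fold changes of 5.37 (SE 0.64) and 7.36 (SE 0.79; edgeR adjusted p = 3.83e-05 and 2.42e-05). For both genes the injured libraries of either genotype were far above every uninjured one.

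Several motors had no count at all in uninjured controls. Kif2c, a microtubule depolymerase, was at 0 in all 6 uninjured libraries and was at least 38.8-fold higher in injured controls and at least 38.9-fold higher in the injured knockout. Kif18a, which limits the oscillation of chromosomes at the spindle equator, was at 0 in ctrl and at 23.4, 14.6 and 13.2 CPM in ctrl + CCl4 (at least 32.6-fold). In the knockout it went from 0, 0.483 and 0.426 to 11.4, 11.7 and 6.28 CPM. Dlgap5, which stabilises the microtubule fibres of kinetochores, was at 0 in ctrl and at 26.4, 25.3 and 13.2 CPM in ctrl + CCl4, against 0.541, 0.483 and 0 and then 17.7, 17.1 and 9.11 CPM in the knockout. Kif18b, a kinesin of astral microtubules, had the lowest levels of the step after injury. It was at 0 in the uninjured libraries of both genotypes, at 5.49, 3.97 and 1.93 CPM in ctrl + CCl4 and at 5.05, 4.74 and 0.628 CPM in Yap/Taz KO + CCl4, at least 7.24-fold higher in each. Its call was lost without ctrl + CCl4 replicate 1 in controls (edgeR adjusted p = 0.0559) and in 5 leave-one-out fits in the knockout (adjusted p from 0.051 to 0.0723). The other 5 genes of the step rose in controls with log2 fold changes from 3.51 (Kif15, a motor that backs up Kif11) to 4.86 (Nusap1, which bundles spindle microtubules).

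**Figure D3:**
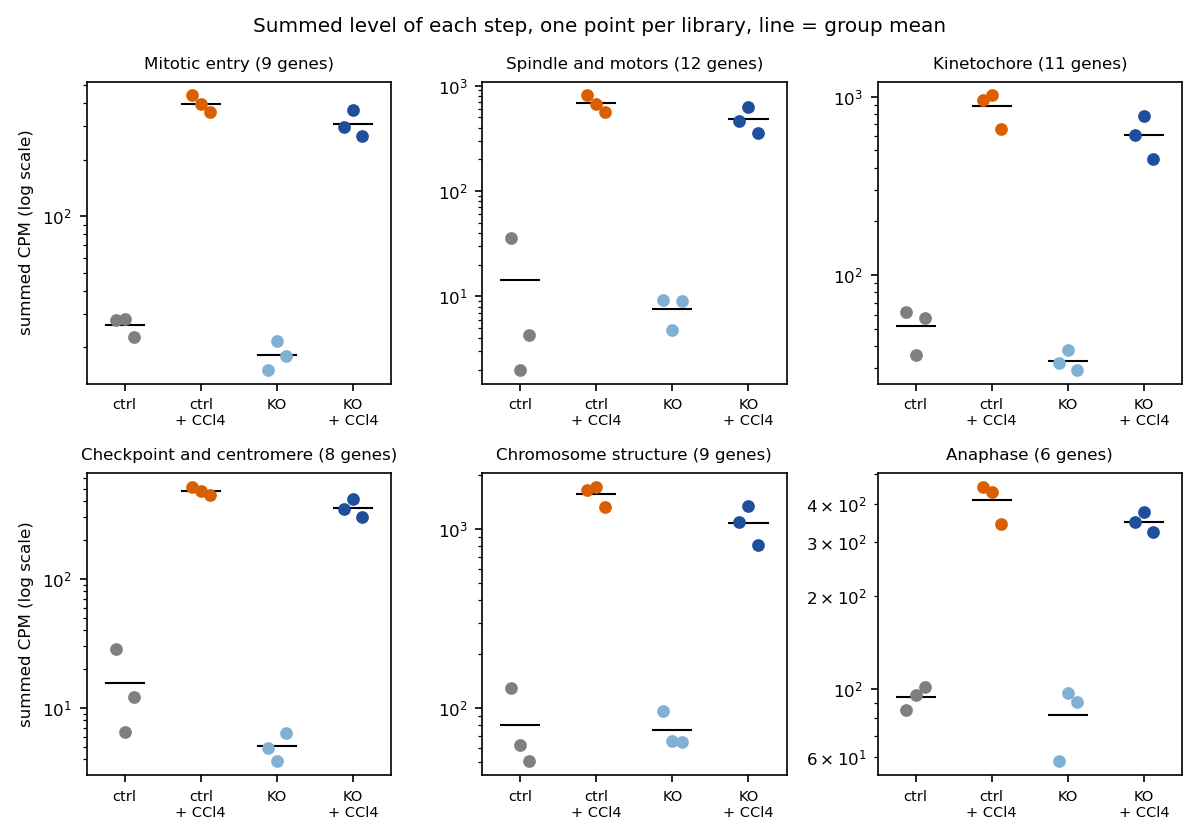
Summed level of the genes of each step (TMM-scaled CPM, log axis) in each library (points) with the mean of the 3 libraries of a group (lines). Injured libraries are above uninjured ones in all 6 panels, and the anaphase panel has the smallest separation, from 85.1 to 101 CPM in ctrl against 344 to 455 CPM in ctrl + CCl4. Most of the uninjured anaphase sum is Pttg1, with a mean of 87.8 CPM in ctrl, where the mean sum was 93.7 CPM.

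All 11 kinetochore genes rose in both genotypes, with medians of 4.87 in controls (4.54 with 1 member at its bound) and 4.79 in the knockout. Their summed level was 61.7, 35.7 and 57.6 CPM in ctrl against 964, 1020 and 663 CPM in ctrl + CCl4, and 31.9, 38.1 and 29.4 against 613, 778 and 448 CPM in the knockout. Within the NDC80 complex, which couples kinetochores to microtubules, the 4 subunits differed in their level before injury. Spc25 and Spc24, the subunits that face the centromere, were detected in all 6 uninjured libraries. Spc25 was at 9.05, 19.6 and 11.4 CPM in ctrl and at 187, 178 and 137 CPM in ctrl + CCl4 (log2 fold change 3.64, SE 0.32, edgeR adjusted p = 5.04e-06). Knockout levels of Spc25 went from 7.04, 8.69 and 14.5 to 150, 153 and 117 CPM (log2 fold change 3.78, SE 0.33, adjusted p = 4.64e-06). Ndc80 and Nuf2, the subunits that bind microtubules, had few counts or none before injury. Nuf2 was at 0 in ctrl and at 15.4, 13.4 and 7.41 CPM in ctrl + CCl4, at least 23.2-fold higher, and Ndc80 rose by 5.12 on the log2 scale (SE 0.65). Nuf2 went from 0, 0.965 and 0.426 to 14.5, 10.4 and 7.54 CPM in the knockout, where Ndc80 had 1 count before injury and a 172-fold ratio (95% counting interval 30.6 to 6810).

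The large kinetochore proteins Cenpf and Cenpe had steep rises. Cenpf, of the outer kinetochore, was at 6.58, 3.02 and 0.711 CPM in ctrl and at 259, 311 and 150 CPM in ctrl + CCl4. It went from 1.62, 0.483 and 0.852 to 135, 197 and 64.7 CPM in the knockout, with log2 fold changes of 5.98 (SE 0.56, edgeR adjusted p = 7.6e-06) and 7.03 (SE 0.65, adjusted p = 7.69e-06). Cenpe, the kinetochore motor that moves chromosomes to the equator, went from 6.17, 0.503 and 0.711 to 168, 209 and 126 CPM in controls. In the knockout it went from 1.08, 1.45 and 1.7 to 84.0, 142 and 53.7 CPM, and the log2 fold changes were 5.89 (SE 0.57) and 5.98 (SE 0.62; edgeR adjusted p = 9.59e-06 and 1.69e-05). The injured knockout library with the lowest level of both genes was replicate 3.

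The weakest kinetochore rises were those of Spc24 (1.82 in controls and 2.04 in the knockout on the log2 scale) and Cenpk, a subunit of the inner kinetochore. Cenpk was at 3.29, 0 and 7.82 CPM in ctrl and at 14.7, 11.6 and 16.1 CPM in ctrl + CCl4, a log2 fold change of 2.02 (SE 0.68, edgeR adjusted p = 0.0438). That call was lost in 11 alternatives, among them the replicate block (adjusted p = 0.0547), the fit of the 6 libraries compared (0.121) and the fits without ctrl replicate 1 (0.0679) or 2 (0.0779). In the knockout Cenpk went from 2.71, 3.86 and 1.28 to 26.2, 26.2 and 13.5 CPM, a log2 fold change of 3.07 (SE 0.69, adjusted p = 0.0064) that was called in every alternative. Cenph, a second inner subunit, had counts in ctrl replicate 1 only (4.11 CPM) and 31.5, 19.5 and 37.7 CPM in ctrl + CCl4. It had no count in Yap/Taz KO and 24.0, 25.9 and 18.5 CPM in Yap/Taz KO + CCl4, at least 47.6-fold higher.

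All 8 checkpoint and centromere genes rose in both genotypes, with medians of 4.98 in controls and 6.34 in the knockout (6.04 with 1 member at its bound). Their summed level was 28.4, 6.54 and 12.1 CPM in ctrl against 518, 483 and 448 CPM in ctrl + CCl4, and 4.87, 3.86 and 6.39 against 347, 416 and 304 CPM in the knockout. Ttk, the kinase that starts the checkpoint, had counts in ctrl replicate 1 only (2.06 CPM) and 98.9, 82.1 and 66.7 CPM in ctrl + CCl4. Among knockout libraries Ttk was seen in replicate 3 only before injury (2.13 CPM) and was at 42.9, 65.4 and 32.7 CPM after it. The log2 fold changes were 6.54 (SE 0.71, edgeR adjusted p = 2.02e-05) and 5.82 (SE 0.71, adjusted p = 8.26e-05). Bub1b, part of the complex that restrains Cdc20, had counts in ctrl replicate 1 only (2.47 CPM) and 31.1, 23.8 and 35.4 CPM in ctrl + CCl4. It had 1 count in Yap/Taz KO and 19.3, 24.0 and 9.11 CPM in Yap/Taz KO + CCl4, a 109-fold ratio with a 95% counting interval from 19.4 to 4340. Bub1, the partner kinase, was at 0 in ctrl and at least 32.8-fold higher in ctrl + CCl4.

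Mad2l1, which binds Cdc20 directly, had the smallest rise of the step in controls. It was at 3.29, 0 and 4.26 CPM in ctrl and at 37.7, 20.7 and 29.6 CPM in ctrl + CCl4 (log2 fold change 3.57, SE 0.64, edgeR adjusted p = 0.00104). In the knockout it went from 1.62, 0 and 2.13 to 29.7, 31.3 and 33.0 CPM (log2 fold change 4.57, SE 0.69, adjusted p = 0.000381). Cdca8 and Birc5 belong to the chromosomal passenger complex, which corrects faulty attachments. Cdca8 was at 3.7, 5.54 and 5.69 CPM in ctrl and at 70.0, 79.0 and 85.7 CPM in ctrl + CCl4, and went from 1.62, 0.483 and 0 to 60.9, 74.2 and 49.6 CPM in the knockout. Its log2 fold changes were 3.99 (SE 0.37, edgeR adjusted p = 7.21e-06) and 6.47 (SE 0.48, adjusted p = 1.65e-06). Birc5 (survivin) went from 12.8, 1.01 and 2.13 to 173, 213 and 156 CPM in controls and from 1.62, 1.45 and 0 to 143, 146 and 134 CPM in the knockout, with log2 fold changes of 4.96 (SE 0.57) and 7.12 (SE 0.70; edgeR adjusted p = 3.02e-05 and 1.33e-05). The shugoshins Sgo1 and Sgo2a, which protect cohesion at centromeres, also rose in controls: Sgo1 by 5.01 on the log2 scale (SE 0.70), and Sgo2a, with 2 counts in ctrl, by a 59.5-fold ratio (95% counting interval 16.2 to 495).

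All 9 genes of chromosome structure rose in both genotypes, with medians of 5.06 in controls and 5.26 in the knockout (3.86 with 3 members at their bound). Their summed level was 130.0, 62.4 and 50.5 CPM in ctrl against 1650, 1720 and 1330 CPM in ctrl + CCl4, and 96.4, 65.6 and 64.7 against 1090, 1340 and 817 CPM in the knockout. Smc4 and Smc2, the ATPases of condensin, were detected in every library. Smc4 was at 63.3, 34.2 and 39.1 CPM in ctrl and at 540, 577 and 403 CPM in ctrl + CCl4, and went from 56.9, 46.3 and 36.2 to 356, 445 and 318 CPM in the knockout. The log2 fold changes of Smc4 were 3.47 (SE 0.29, edgeR adjusted p = 3.56e-06) and 3.01 (SE 0.28, adjusted p = 8.38e-06). Smc2 went from 16.0, 18.6 and 6.4 to 238, 231 and 201 CPM in controls and from 16.2, 8.2 and 11.9 to 162, 205 and 122 CPM in the knockout. Its log2 fold changes were 3.99 (SE 0.35) and 3.75 (SE 0.35; edgeR adjusted p = 5.04e-06 and 8.38e-06).

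The subunits that belong to condensin I alone had fewer counts before injury than these ATPases. Ncapg had 1 count in each ctrl library (0.411, 0.503 and 0.711 CPM) and 41.4, 47.9 and 30.9 CPM in ctrl + CCl4, a 78.0-fold ratio with a 95% counting interval from 26.5 to 380. It had no count in Yap/Taz KO and 27.1, 33.5 and 27.6 CPM in Yap/Taz KO + CCl4, at least 61.5-fold higher. Its last 500 bases overlap Lcorl on the opposite strand. Ncaph and Ncapd2 rose by 4.47 and 4.11 on the log2 scale in controls and by 3.25 and 3.13 in the knockout. Mki67, the proliferation antigen that coats mitotic chromosomes, had counts in ctrl replicate 1 only (11.1 CPM) and 196, 262 and 159 CPM in ctrl + CCl4. It was at 2.71, 2.41 and 3.41 CPM in Yap/Taz KO and at 114, 168 and 52.1 CPM in Yap/Taz KO + CCl4, with log2 fold changes of 5.58 (SE 0.77, edgeR adjusted p = 0.000144) and 5.26 (SE 0.79, adjusted p = 0.000403).

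Cdca2, which brings a phosphatase to chromatin at the exit from mitosis, had counts in ctrl replicate 1 only (2.88 CPM) and 55.7, 67.7 and 51.9 CPM in ctrl + CCl4. It had no count in Yap/Taz KO and 39.5, 55.3 and 31.1 CPM in Yap/Taz KO + CCl4, at least 87.6-fold higher. Cdca5 (sororin), which stabilises cohesion between sister chromatids, had the largest adjusted p of the step in controls (edgeR adjusted p = 0.00159). It had 1 count in ctrl and 8.06, 6.41 and 7.09 CPM in ctrl + CCl4, against none in Yap/Taz KO and 5.68, 9.16 and 5.97 CPM in Yap/Taz KO + CCl4. Top2a, the topoisomerase that separates tangled sister DNA, rose by 5.12 in controls and 5.42 in the knockout on the log2 scale.

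The anaphase genes were uneven. Of the 6, 4 rose in both genotypes, Pttg1 did not pass the test in either and Ube2s was too low to test. The median log2 fold change of the 5 tested was 7.065 in controls (4.535 with 1 member at its bound) and 6.989 in the knockout. Cdca3 went from 1.65, 0 and 0.711 to 130, 119 and 111 CPM in controls and from 0.541, 0.965 and 0.426 to 85.2, 95.4 and 131 CPM in the knockout. Cdc20, the activator of the anaphase-promoting complex, had 3 counts in ctrl, all in replicate 1, and 125, 95.5 and 83.4 CPM in ctrl + CCl4, a 195-fold ratio (95% counting interval 66.4 to 945). In the knockout Cdc20 went from 0.541, 0 and 0.426 to 66.6, 94.2 and 56.5 CPM, a 227-fold ratio (95% counting interval 62.6 to 1880). Ube2c, the enzyme that starts ubiquitin chains for the complex, was at 6.58, 4.03 and 3.55 CPM in ctrl and at 116, 136 and 90.5 CPM in ctrl + CCl4. It went from 0.541, 0.483 and 0.852 to 99.4, 102 and 60 CPM in the knockout. Espl1 (separase) was at 0 in ctrl and at least 15.8-fold higher in ctrl + CCl4. The last 500 bases of Cdc20 and Ube2c overlap Elovl1 and Tnnc2 on the opposite strand, and the sources used here do not say whether the counting used strand.

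Pttg1 was the exception among the tested members. Securin transcript stood at 75.7, 91.1 and 96.7 CPM in ctrl and at 74.7, 76.6 and 52.2 CPM in ctrl + CCl4. Knockout levels were 55.2, 95.1 and 89.0 CPM before injury and 88.1, 74.9 and 71.3 CPM after it. The groups overlapped in both genotypes, and the log2 fold changes were -0.37 (SE 0.24, edgeR adjusted p = 0.305) and -0.03 (SE 0.24, adjusted p = 0.948). The second value was 0.33 when counts were scaled by library totals. Pttg1 held 20.5% to 41.2% of the summed member level in uninjured libraries and 1.41% to 2.83% in injured ones. Ube2s, which extends ubiquitin chains for the anaphase-promoting complex, had no count in any library but 2 of Yap/Taz KO + CCl4, with 3 and 2 counts. Its last 500 bases overlap Rpl28 on the opposite strand.

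**Figure D4:**
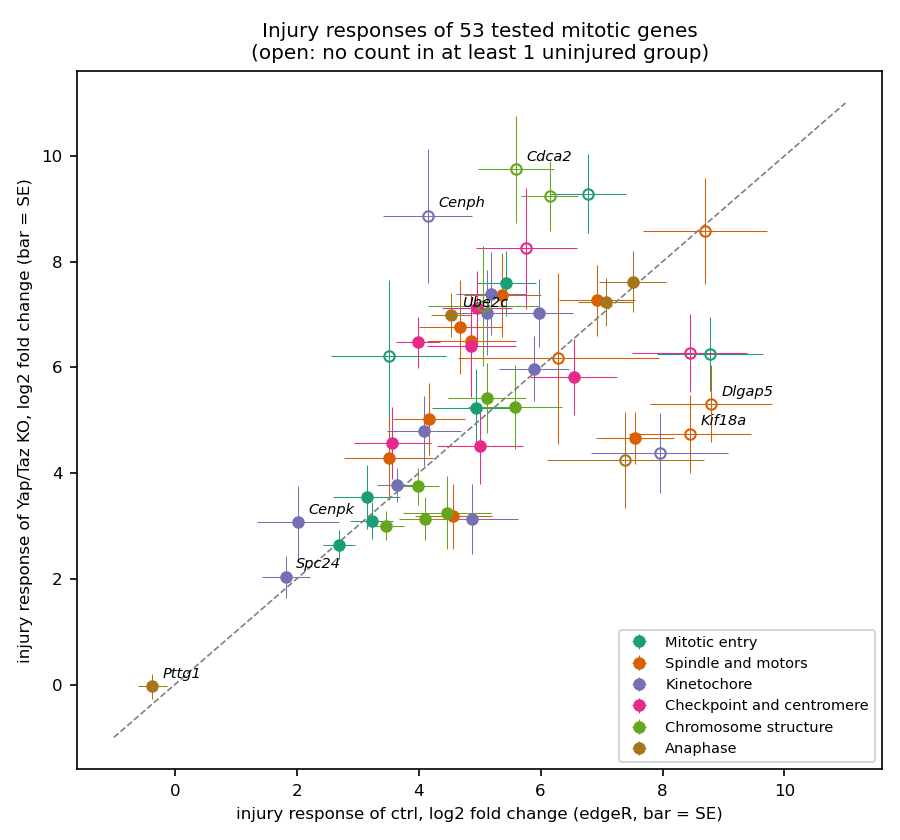
Log2 fold change of the 53 tested genes after injury in controls (horizontal axis) and in the knockout (vertical axis), with standard errors as bars and equal responses on the dashed line. Points are coloured by step and open where an uninjured group had no count, for which the fitted value is no bound; Pttg1 lies near 0 on both axes and all other genes at 1.82 or above on both.

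After injury the knockout libraries were on average lower for most mitotic genes, but no gene passed the test. None of the 53 tested members was called higher or lower (edgeR; smallest adjusted p 0.889, for Kif4), where 0% of all tested genes were called in either direction. None had an unadjusted p under 0.05 in edgeR, where 4.07% of all tested genes were higher and 1.61% lower, and DESeq2 called none, with 5 members lower at that threshold (1.84% of all genes). With 1 library left out edgeR gave 0 to 7 members lower at that threshold, the most without ctrl replicate 1. The share of all tested genes was not computed for these fits. The log2 fold changes ran from -0.99 (SE 0.47) for the chromokinesin Kif4 to 0.64 (SE 0.57) for Cenpk, with a median of -0.44 against -0.01 for all tested genes. Below 0 lay 48 of the 53 members (90.6%), against 50.9% of all tested genes. The median standard error was 0.44, so a reduction of the size of the median could not be told from none for a single gene. The summed level was 4420 ± 623 CPM in ctrl + CCl4 and 3200 ± 695 CPM in Yap/Taz KO + CCl4 (SD, n = 3 each), and the 2 ranges overlapped.

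The 3 knockout libraries were all below the 3 control libraries for 12 of the 55 members and all above them for none, where 7.81% of all tested genes were all lower and 8.5% all higher. At entry these were Plk1 (110, 121 and 77.2 against 163, 169 and 130 CPM), Foxm1 (16.4, 17.4 and 13.8 against 22.0, 20.7 and 21.6 CPM), Cdc25b and Cdc25c. Among spindle and kinetochore genes they were Kif18a, Kif22 and Cenpn. In the checkpoint group Ttk was at 42.9, 65.4 and 32.7 against 98.9, 82.1 and 66.7 CPM, and Birc5 at 143, 146 and 134 against 173, 213 and 156 CPM. Sgo1 was at 20.8, 32.9 and 25.4 against 57.1, 35.1 and 39.3 CPM. Top2a stood at 332, 342 and 211 against 461, 429 and 388 CPM, and Ncaph at 11.4, 14.8 and 11.9 against 31.1, 16.5 and 20.9 CPM. The log2 fold changes of these 12 genes lay between -0.84 (Ncaph) and -0.36 (Birc5), each with an edgeR adjusted p of 0.976 or more.

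The ratio of the knockout mean to the control mean of the summed level after injury was 0.781 for entry, 0.712 for spindle, 0.696 for kinetochore, 0.737 for checkpoint, 0.693 for chromosome structure and 0.848 for anaphase genes. The anaphase sum includes Pttg1, at a mean of 78.1 CPM in the injured knockout against 67.8 CPM in injured controls. The 5 members above 0 were Cenpk, Cdkn3 (0.35, SE 0.33), Pttg1, Mad2l1 and Kif15. Libraries within the injured groups also differed. Yap/Taz KO + CCl4 replicate 3 was the lowest of the 6 injured libraries for 37 of the 53 members and replicate 1 for 11, while ctrl + CCl4 replicate 1 was the highest for 25 and replicate 2 for 17. Without Yap/Taz KO + CCl4 replicate 3 the median was -0.31, with 43 of 53 members below 0. Hepatocyte markers were at 69500 to 87100 CPM in the injured knockout against 46900 to 63200 CPM in injured controls, and cholangiocyte markers (8 genes, of which Cftr had a count in 1 library only) at 98.0 to 226 against 388 to 464 CPM. Macrophage and Kupffer cell markers were below 0 for 11 of 12 and monocyte and neutrophil markers for 9 of 10, with no call, and the knockout mean of their sums was 0.709 and 0.746 of the control mean, beside 0.724 for the 55 genes. That ratio was 0.357 for lymphocyte markers, 1.09 for stellate cell markers and 1.05 for endothelial markers. Most of the lymphocyte sums was Il7r, at a mean of 10.4 CPM in the injured knockout against 34.1 CPM in injured controls. The part of these differences in the mitotic levels was not tested.

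**Figure D5:**
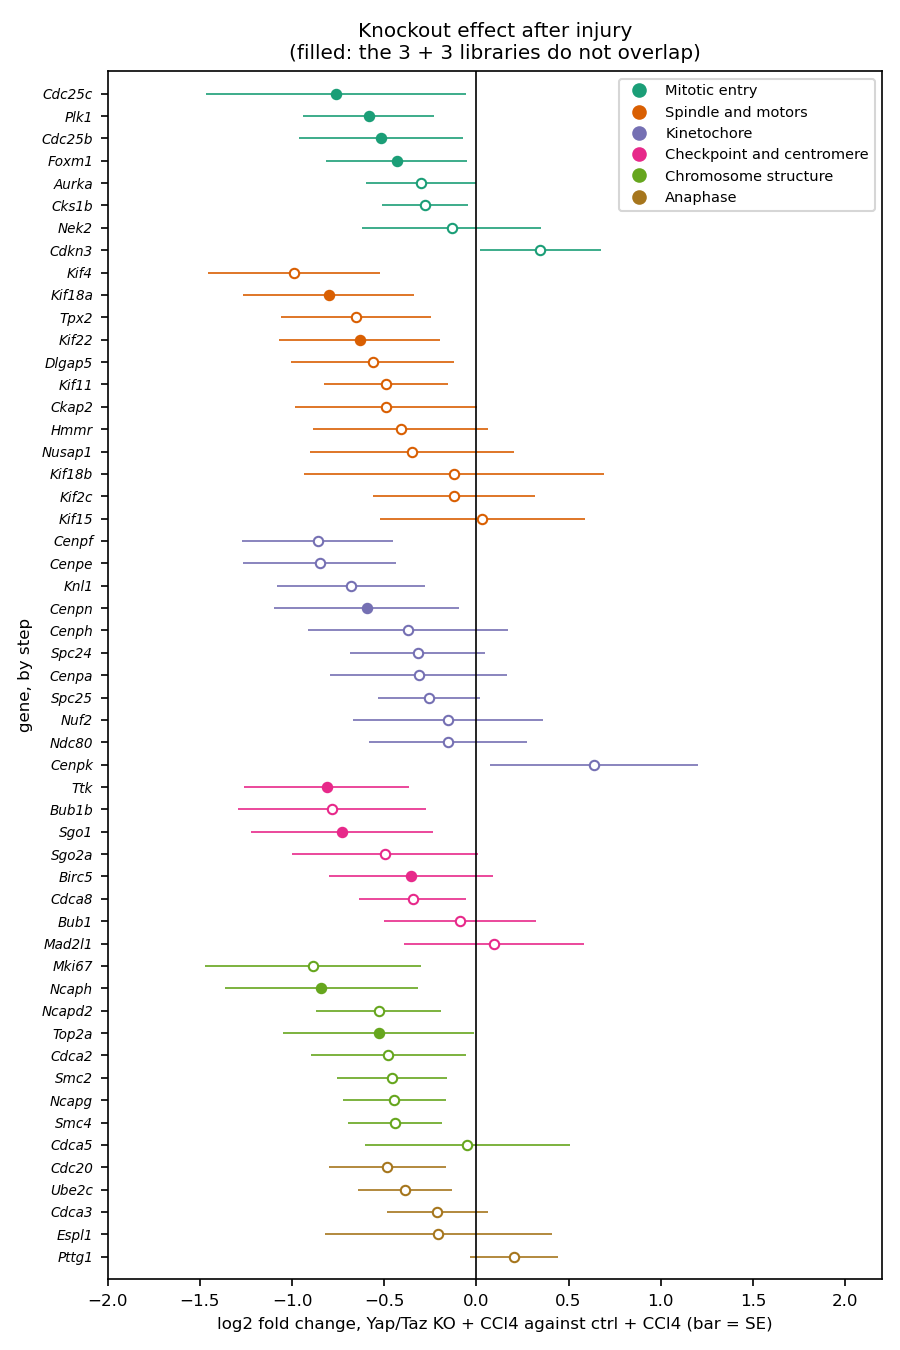
Log2 fold change of the 53 tested genes between Yap/Taz KO + CCl4 and ctrl + CCl4, ordered by step and value, with standard errors as bars. Filled points are the 12 genes whose 3 knockout libraries are all below the 3 control libraries, and 48 of the 53 points lie left of 0.

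Without injury no member passed the test for the knockout either (edgeR; 0% of all tested genes were called), and DESeq2 called none of them. At an unadjusted p under 0.05 edgeR gave 10 members lower and 1 higher, where 5.4% of all tested genes were lower and 4.06% higher. Without ctrl replicate 1 these were 4 lower and 6 higher, without ctrl replicate 2 they were 17 lower and 0 higher, and without Yap/Taz KO replicate 2 they were 6 lower and 0 higher. For these fits the share of all tested genes at that threshold was not computed. Of the 53 tested, 39 had a log2 fold change below 0 and 12 above, with a median of -0.59. Among all tested genes 52.9% were below 0, with a median of -0.03. The order of the groups rested on ctrl replicate 1: without it 17 members were below 0 and the median was 0.11, with 25 members that had no count left in ctrl. Libraries did not overlap for 3 members that were lower (Ube2c, Cdca8 and Ncapg) and 1 that was higher (Kif11), where 4.92% and 5.81% of all tested genes did so. Ube2c was at 0.541, 0.483 and 0.852 CPM in Yap/Taz KO against 6.58, 4.03 and 3.55 CPM in ctrl, a log2 fold change of -2.84 (SE 0.53, edgeR adjusted p = 0.218). Cdca8 was at 1.62, 0.483 and 0 against 3.7, 5.54 and 5.69 CPM, a log2 fold change of -2.83 (SE 0.60, adjusted p = 0.22). Kif11, with 1 count in ctrl, was at 1.08, 1.45 and 0.852 CPM in Yap/Taz KO, a 6.51-fold ratio with a 95% counting interval from 0.836 to 293. With no filter on low counts 7 members passed as lower (Birc5, Cdca8, Cenph, Hmmr, Nusap1, Plk1 and Ube2c), where 210 of all 19259 genes were called in either direction. Counts in the 3 ctrl libraries were 10, 0 and 0 for Cenph and 25, 0 and 0 for Nusap1. They were 20, 2 and 0 for Hmmr and 31, 2 and 3 for Birc5. Plk1 had 11, 9 and 1, Cdca8 had 9, 11 and 8, and Ube2c had 16, 8 and 5.

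The difference between the injury responses of the knockout and the controls was tested as an interaction. No member passed (edgeR; 0% of all tested genes were called), DESeq2 called none of them, and at an unadjusted p under 0.05 edgeR gave 6 members with a larger response in the knockout and 1 with a smaller one, where 4.54% of all tested genes had a larger and 3.57% a smaller one. Without ctrl replicate 1 these were 2 larger and 10 smaller, and with any other library left out 3 to 8 larger and 0 to 3 smaller, for which the share of all tested genes was not computed. The median difference of log2 fold changes was 0.30, with 33 members above 0 and 20 below, where 46.1% of all tested genes were below 0 with a median of 0.07. The median of the members turned to -0.76, with 37 below, without ctrl replicate 1, where 8 members had no count in either uninjured group. Ube2c had a difference of 2.45 (SE 0.60, edgeR adjusted p = 0.533), and passed only with no filter on low counts (2.44, adjusted p = 0.0491). Cdca8 had a difference of 2.48 (SE 0.68, adjusted p = 0.533). The most positive differences were those of Cenph (4.72, SE 2.00), Cdca2 (4.15, SE 1.86) and Ncapg (3.09, SE 1.23), which had no count in Yap/Taz KO, and the most negative those of Kif18a (-3.71, SE 1.76), Nuf2 (-3.58, SE 1.75) and Dlgap5 (-3.49, SE 1.83), which had none in ctrl. These 6 fitted values depend on a group without counts. Without ctrl replicate 1 Cenph and Cdca2 had no count in either uninjured group, so no difference of their responses could be measured.

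Other genes of the same steps were counted in the same way, beside the 10.5% and 9.42% of all tested genes called higher in controls and in the knockout. Of 28 tested kinetochore genes outside the 55, 22 rose in controls and 21 in the knockout, with medians of 3.64 and 3.31 on the log2 scale. Zwilch, of the complex that brings dynein to kinetochores, went from 0.823, 0 and 0 to 13.9, 12.8 and 15.5 CPM in controls, a 40.9-fold ratio (95% counting interval 11.1 to 341, edgeR adjusted p = 6.42e-05). Ska1, which strengthens microtubule attachment, rose by a 38.6-fold ratio (95% counting interval 13 to 189). Zwint, a kinetochore protein that helps to recruit that complex, was at 44.8, 59.4 and 68.2 against 66.3, 50.9 and 43.2 CPM and did not pass. Of 24 spindle genes, 19 and 17 rose, among them Ckap2l (5.63, SE 0.52) and the motor Kif20b (5.76, SE 0.54), while Haus4 was at 8.23 to 14.1 against 11.9 to 22.6 CPM and did not pass in controls. Of 14 entry genes, 8 and 9 rose, among them the cyclins Ccnb2 (6.76, SE 0.52) and Ccna2 (6.26, SE 0.54), and Rbbp4, a histone-binding protein of several chromatin complexes, did not (0.08, SE 0.32).

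For the remaining lists the same shares apply, with 12% and 8.35% of all tested genes called lower. Of 15 genes of the anaphase-promoting complex (subunits and the co-activator Fzr1), 3 rose and 1 fell in controls and 1 rose in the knockout. The medians were 0.28 and 0.55. Anapc5 was at 60.1, 57.4 and 37.0 CPM in ctrl and at 89.0, 105 and 91.8 CPM in ctrl + CCl4 (log2 fold change 0.88, SE 0.21, edgeR adjusted p = 0.0079), Cdc27 rose by 1.36 (SE 0.33) and Anapc4 by 1.44 (SE 0.40). Anapc13 fell by 0.96 (SE 0.26, edgeR adjusted p = 0.0146), and Anapc2 had 0.08 (SE 0.31). Anapc4, Anapc13 and Tpr are named because they complete these small counts, a choice made after their values were seen. Of the 17 other condensin and cohesin genes, a list that also holds Smc5 and Smc6 of a related complex, 10 rose in controls and 5 in the knockout. The medians were 0.63 and 0.11. Rad21, the cohesin subunit that separase cuts, went from 91.7, 64.9 and 58.3 to 240, 260 and 219 CPM in controls (log2 fold change 1.74, SE 0.23, edgeR adjusted p = 9.53e-05). Esco2, which acetylates cohesin in S phase, had 2 counts in ctrl and a 66.8-fold ratio (95% counting interval 18.3 to 555), and Mau2, of the cohesin loader, had -0.17 (SE 0.42). Of 5 tested checkpoint genes, 3 rose in controls and 2 in the knockout. Trip13, which recycles the Mad2l1 protein, had 2 counts in ctrl and a 38.7-fold ratio (95% counting interval 10.5 to 323). Bub3, a partner of both Bub kinases, rose by 1.17 (SE 0.22) and Tpr, of the nuclear pore, by 0.98 (SE 0.25), while Mad1l1 had 0.45 (SE 0.37). The share of promoter entries with TTTGAA was 11.8% for the list of the anaphase-promoting complex and 28.6% for the condensin and cohesin list. It was 37.5% for the entry genes, 41.7% for the spindle genes, 42.9% for the checkpoint genes and 43.5% for the kinetochore genes, against 60.8% for the 55.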

How the data were processed

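RNA was measured by QuantSeq, which gives 1 tag near the 3′ end of a transcript, so counts do not scale with gene length. The authors deposited raw counts per gene. Per the submitters' processing notes, the tools were FastQC, cutadapt and STAR 2.6.1d, with mm10 and GRCm38 as builds. The sources used here do not give the counter, annotation, strand setting or filters. Members and gene lists were chosen with earlier results of these data known. All 12 samples were fitted with edgeR 4.0.16 (quasi-likelihood, TMM scaling, 1 coefficient per group, filterByExpr, 10780 genes tested) in R 4.3.3, with Benjamini-Hochberg adjustment over all tested genes at 0.05. DESeq2 1.42.0 was an alternative. SE is the absolute log2 fold change divided by the square root of F. Against a group without counts, folds are lower bounds from a floor of 3 counts over the group. With 1 to 3 counts they carry an exact 95% binomial interval, for counting error only. Values per sample are given for the 3 members with the smallest and the 1 with the largest adjusted p of each step in injured controls, the 3 most positive and 3 most negative differences of responses, and Foxm1, Mki67, Plk1, Bub1b, Cdc20, Pttg1, Cks1b and Cks2; other mitotic lists give the 2 smallest and the 1 largest adjusted p. Further members were named after their values were seen. The scripts were tested on simulated data.

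The labels do not say whether equal replicate numbers mark paired samples, so the main fit used no pairing. Other settings are in the closing section. Promoters are from RefSeq (GRCm38.p6) and gene overlaps from GENCODE M21.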

Additional observations from a re-analysis of the deposited data

Results flagged for a closer look

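Wapl, which releases cohesin from chromosomes and is not among the 55 genes, moved in opposite directions after injury in the 2 genotypes, with every library of each on its own side. It was at 101, 98.1 and 84.6 CPM in ctrl and at 122, 169 and 136 CPM in ctrl + CCl4. In Yap/Taz KO it was at 178, 183 and 161 CPM, and in Yap/Taz KO + CCl4 at 127, 125 and 107 CPM. The injury response of Wapl was 0.59 in controls (SE 0.20, edgeR adjusted p = 0.0415) and -0.54 in the knockout (SE 0.19, edgeR adjusted p = 0.0693). The difference of the responses was -1.13 (SE 0.27) and did not pass in edgeR (adjusted p = 0.533), while DESeq2 gave an adjusted p of 0.0499. The call in controls was lost in 10 alternatives, with adjusted p up to 0.148. DESeq2 also called Wapl lower after injury in the knockout (-0.51, adjusted p = 0.044) and higher in the uninjured knockout (0.87, adjusted p = 0.01). All 17 genes of its list, the other condensin and cohesin genes, had a difference of responses below 0, against 46.1% of all tested genes. Their median was -0.71, with none called in edgeR. Without injury 16 of the 17 were above 0 in the knockout, and after injury 16 were below 0. Wapl was picked out after its values were seen.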

How the results depend on the processing

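Over the alternatives (other scaling, no filter, a filter of 5 CPM in 3 samples, DESeq2, a replicate block, the 6 samples compared, and each library left out), the members called higher after injury numbered 50 to 52 in controls and 50 to 53 in the knockout. Leaving out 1 library gave a median injury response in controls from 4.56 to 7.21, the highest without ctrl replicate 1, where 25 of 53 members had no count left in ctrl and their fitted values are no bounds (4.66 with these at their bound). For the knockout without injury it gave medians from -1.14 to 0.11 and 17 to 39 members below 0, and 7 of the 9 members tested were below 0 in the 6 samples compared. For the difference of responses it gave medians from -0.76 to 0.72 and 16 to 37 members below 0, with Cdca2 from -0.48 to 4.75 and Cenph from -0.37 to 5.32. The low ends for these 2 genes come from the fit without ctrl replicate 1, which leaves them no uninjured count and so measures no difference of responses. With no filter on low counts 7 members were called lower in the knockout without injury and 1 member (Ube2c) had a called difference. Of all 19259 genes in that fit, 210 and 115 were called in these 2 comparisons, in either direction.

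Genes near 0 changed sign. Scaled by library totals, which raised the median of all genes by 0.36 in controls and 0.37 in the knockout, the injury response was 0.27 for Zwint and 0.19 for Mau2 in controls, and 0.33 for Pttg1 and 0.29 for Anapc2 in the knockout. With 1 library left out, values in controls ran from -0.27 to 0.044 for Zwint, -0.39 to 0.094 for Mau2, -0.15 to 0.32 for Anapc2 and -0.10 to 0.25 for Rbbp4. In the knockout they ran from -0.24 to 0.11 for Pttg1 and -0.21 to 0.14 for Anapc2, and after injury the knockout effect on Nuf2 ran from -0.42 to 0.070. The cause of these changes was not tested.

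Across all genes, calls for the knockout after injury numbered 0 in edgeR, 17 in DESeq2, 109 with no filter and 5 in the 6 samples compared. Without injury they were 0, 43 in DESeq2 and 210 with no filter, and for the difference 0, 12 and 115. Members lower after injury at an unadjusted p under 0.05 numbered 0 in edgeR, 5 in DESeq2, 10 with no filter and 15 in the 6 samples compared. The share of all genes lower at that threshold was 1.61% in edgeR and 1.84% in DESeq2. It was not computed with no filter or in the 6 samples compared, so those counts cannot be set against all genes. With the replicate number as a block, 51 members were called higher in controls and 52 in the knockout, and the medians were 5.12 and 5.76. Deviations of same-numbered samples correlated from -0.144 to 0.313 over 18 pairs. Before injury 9 members had no count in ctrl and 8 had 1 to 3, and a further decrease of these was not detectable.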
